A study of Mus musculus with 4 samples.

Results

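Semaphorins are guidance ligands, plexins are their signalling receptors, and neuropilins are co-receptors that bind the secreted semaphorins. Every gene of the 3 families in the count table of mouse sciatic nerve was taken by its symbol: 20 semaphorins, 9 plexins and 2 neuropilins, 31 genes of 24062 in all. An antisense RNA that shares the name of a plexin, Plxna4os1, was left out. All 31 genes reached 1 CPM (counts relative to a fixed library total, scaled between libraries) in at least 2 of the 4 libraries, against 14700 genes of the whole table that reached it in any library.

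RNA was sequenced from sciatic nerves of C57BL/6 mice aged 4 months, with 1 library for each of 4 genotypes. WT carried neither mutation. PKO was P2RY14-/-, a loss of the purinergic receptor P2ry14 in all cells. NF1 was Nf1fl/fl; Dhh Cre, and PKO-NF1 was P2RY14-/- Nf1fl/f Dhh Cre. Dhh Cre removes Nf1, which encodes the Ras inhibitor neurofibromin, in the Schwann cell lineage, so vessel and blood-derived cells of the nerve keep the gene. The labels name no Cre in the WT and PKO mice, and give neither the sex of the animals nor how many went into a library. The source name of the NF1 library calls it a repeat. With 1 library per genotype no difference below has a replicate check, and in whole nerve fewer cells of a type and less RNA per cell cannot be told apart.

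As background, the class 3 semaphorins are secreted, and most of them act through a neuropilin joined to a plexin of the A group; Sema3e can bind plexin D1 directly. Classes 4 to 7 stay on the membrane: class 4 members bind mainly B plexins, Sema5a binds plexin B3, class 6 members bind A plexins, and Sema7a binds plexin C1 and integrins. Plexins act inside the cell on small GTPases and the cytoskeleton. In peripheral nerve these genes are known for the guidance of growing axons, and in vessels for steering the endothelium.

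The libraries held between 14111201 and 20362685 counts. P2ry14 stood at 37.6 CPM in WT and 10.9 in PKO, against 65.3 in NF1 and 10.6 in PKO-NF1, low in both knockouts. Nf1 stood at 72.8, 41.0, 63.4 and 20.5 CPM in the same order; counts of the whole gene do not show the floxed exons, and PKO, which should keep the gene, lay below NF1. The NF1 library stood apart: 20 skeletal muscle genes made up 6.66% of its counts, 64412 CPM, while the sum was 1107 in WT, 346 in PKO-NF1 and 154 in PKO. Counts of Xist were 10304 in WT and 4948 in PKO, against 39699 in NF1 and 9 in PKO-NF1, while those of the Y-linked Ddx3y were 813, 396, 0 and 842 in this order, so the libraries differed in the sexes they held. Differences that rest on the NF1 library are therefore set beside the value of the pair without it.

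Per kilobase of exon, Sema3b, a secreted class 3 ligand, was the most abundant of the 31 genes in every library. It measured 102 CPM per kb in WT and 112 in PKO, against 32.1 in NF1 and 43.6 in PKO-NF1. It alone gave 31.5% of all semaphorin CPM in WT and 38.4% in PKO, against 20.8% in NF1 and 33.9% in PKO-NF1. The order below it differed between libraries. In WT it was followed by Plxnd1, the receptor of Sema3e, at 33.8 CPM per kb and Sema4c, a membrane ligand of plexin B2, at 33.5, which are close to each other; Sema6c came next at 23.1 and Sema3g at 22.7. In PKO-NF1 Plxnd1 at 14.2, Nrp1 at 13.4 and Sema3c at 11.4 came after Sema3b, and Sema6c had dropped to the thirteenth place at 3.74. The lowest were Sema3a, Sema5b and Sema4f, all under 1 CPM per kb in each library.

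**Figure D1:**
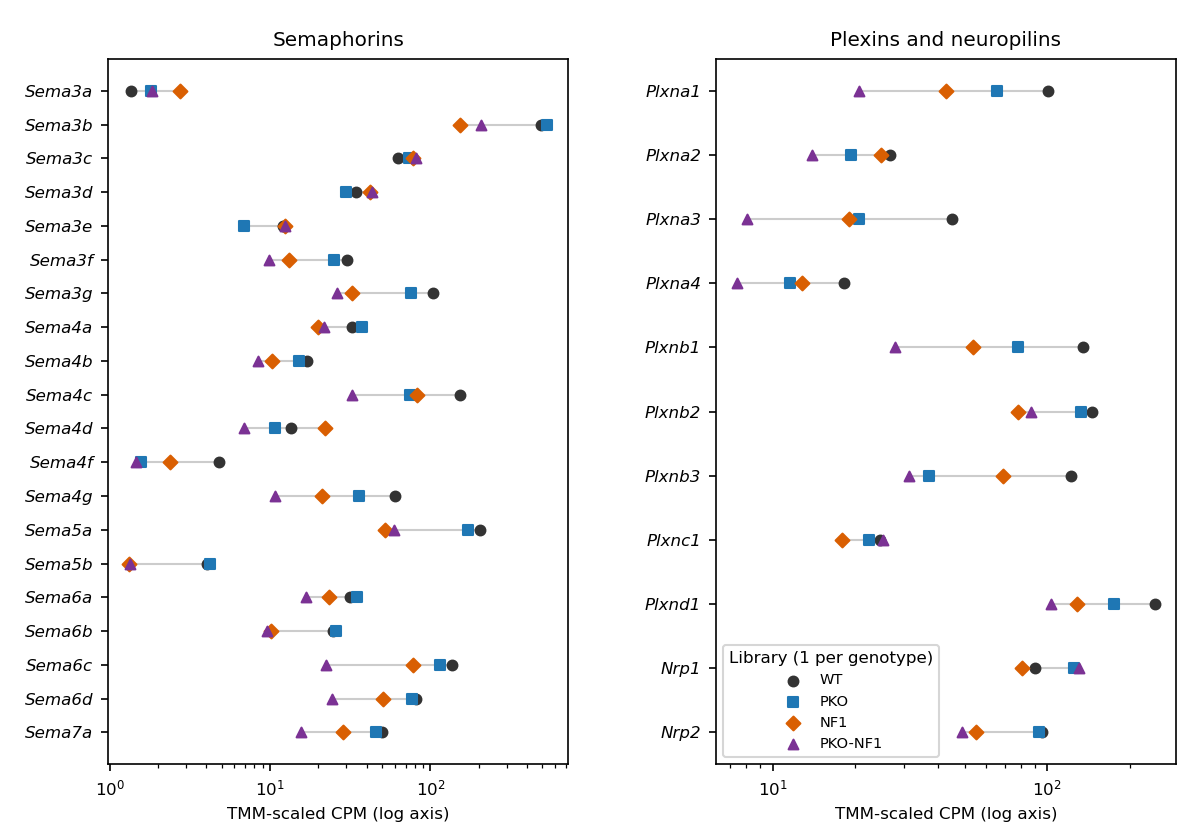
Level of each semaphorin (left) and each plexin and neuropilin (right) in the 4 libraries, as TMM-scaled CPM on a log axis; 1 point is 1 library, and grey lines join the lowest and highest. For most genes the points of NF1 and PKO-NF1 lie left of WT and PKO, while Sema3c spans only 62.4 to 81.3 CPM.

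The first question was how loss of Nf1 in the Schwann cell lineage went with these genes, asked in nerves with P2ry14 (NF1 vs WT) and without it (PKO-NF1 vs PKO), 2 pairs that share no library. The families were lower as a whole. Their summed level was 2596 CPM in WT and 1318 in NF1, and 2180 in PKO and 1119 in PKO-NF1. The semaphorins went from 1546 to 736 CPM and from 1399 to 614, the plexins from 864 to 446 and from 562 to 325. The 2 neuropilins together changed least, from 186 to 136 CPM in NF1 vs WT and from 219 to 180 in the other pair.

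A difference was called if it reached 2-fold and the exact 95% interval of the ratio, which covers counting error only, left out 1. In NF1 vs WT 11 of the 31 genes were called lower, where 6.31% of all genes were, and 1 was called higher, where 10.4% were. In PKO-NF1 vs PKO 15 were called lower, where 9.70% of all genes were, and 0 higher, where 5.20% were. Counting any size of difference, 26 of 31 were lower in NF1 than in WT and 25 of 31 lower in PKO-NF1 than in PKO. The median log2 ratio of the 31 was -0.82 and -0.93, against a median over all genes of 0.00 to 2 decimals in both pairs. Of the 11 called lower in NF1 vs WT, 10 were also called lower in PKO-NF1 vs PKO, which is 90.9% of the first list and 66.7% of the second. Over all genes the calls shared by both pairs were 41.2% of the first list and 26.8% of the second. The 10 were Sema3b, Sema3f, Sema3g, Sema4g, Sema5a, Sema5b and Sema6b among the ligands and Plxna1, Plxna3 and Plxnb1 among the receptors.

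Part of this moved with the base composition of the transcripts. The 31 genes have long transcripts, rich in G and C: their median GC content was 56.2% against 49.7% for all genes, and their median exon length 7720 bases against 4358. Across all genes the median log2 ratio ran from 0.46 in the tenth of genes with the lowest GC content to -0.41 in the tenth with the highest in NF1 vs WT, and from 0.55 to -0.58 in PKO-NF1 vs PKO. After trends over exon length and GC content had been subtracted, 3 of the 31 genes were called lower in NF1 vs WT, where 5.10% of all genes were, and 5 in PKO-NF1 vs PKO, where 5.39% were. The medians of the 31 then were -0.27 and -0.40, against -0.01 and -0.06 over all genes. The 3 were Sema3b, Sema3g and Sema5a, the 5 were Sema3g, Sema5a, Sema6c, Sema6d and Sema7a, so Sema3g and Sema5a held their call in both pairs. Over all genes the shared calls were then 21.2% of the first list and 20.1% of the second. Whether the trends are of RNA quality, of library making or of the tissue was not tested, and for each call of a member below the value with the trends subtracted is given too.

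**Figure D2:**
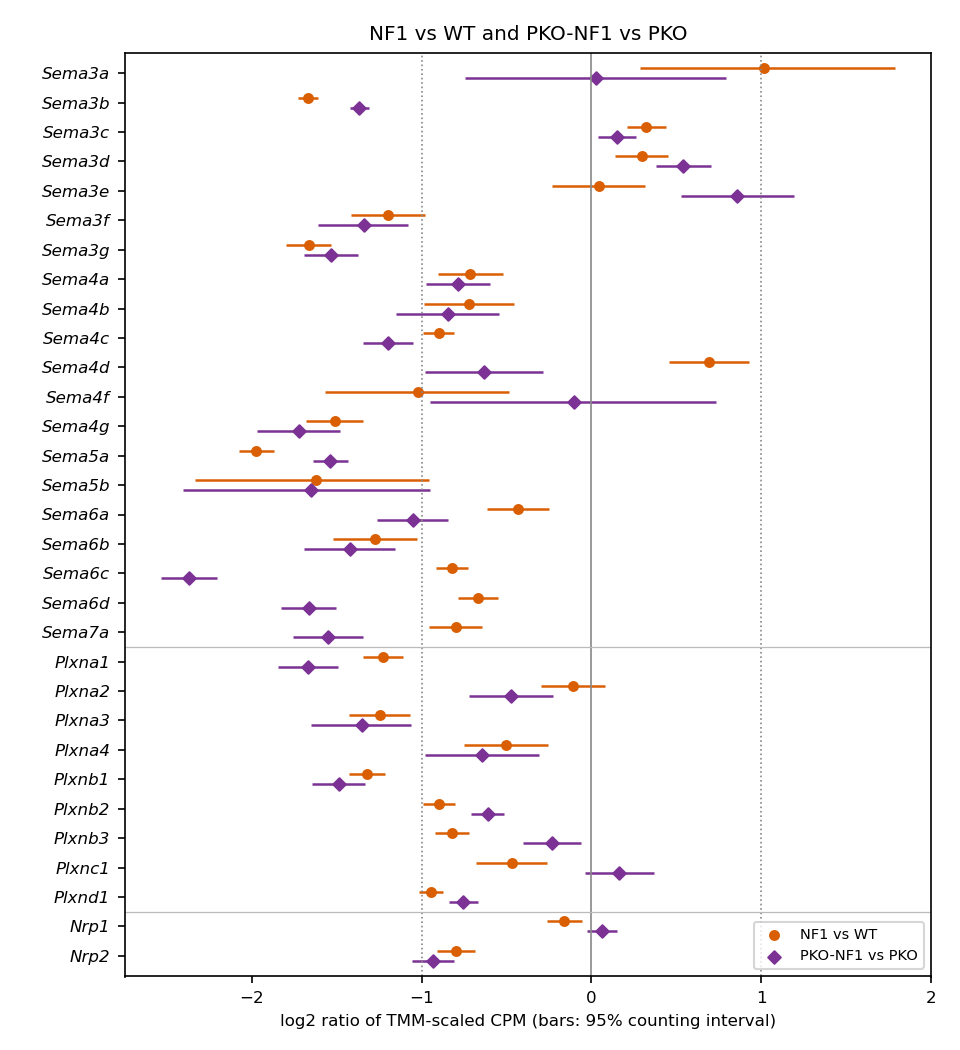
Ratio of each gene in NF1 vs WT (orange circles) and PKO-NF1 vs PKO (purple diamonds) on a log2 scale, with bars for the 95% counting interval and dotted lines at a 2-fold difference; rows run from semaphorins to plexins to neuropilins. The largest differences are those of Sema5a in NF1 vs WT, at -1.97, and Sema6c in PKO-NF1 vs PKO, at -2.37, and the genes right of 0 include Sema3c, Sema3d and Sema3e in both pairs.

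Sema5a and Sema3g were lower in both pairs whichever way they were computed, and their promoter windows are printed to show what lies before each gene, beside that of Sema3d, which was not lower. The RefSeq table for GRCm38.p6, the build also called mm10, held 26 of the 31 genes. Each window is 230 bases long, 5′ to 3′ on the plus strand, and ends 20 bases before the RefSeq start: chr14:31217623-31217852 for Sema3g, chr15:32244563-32244792 for Sema5a and chr5:12382916-12383145 for Sema3d. Capitals mark matches on either strand to GGGCGG, the core of a GC box bound by Sp factors, or to ACAAAG, a short form of the site of SOX factors; CACGTG, an E-box, was searched too.
Sema3g: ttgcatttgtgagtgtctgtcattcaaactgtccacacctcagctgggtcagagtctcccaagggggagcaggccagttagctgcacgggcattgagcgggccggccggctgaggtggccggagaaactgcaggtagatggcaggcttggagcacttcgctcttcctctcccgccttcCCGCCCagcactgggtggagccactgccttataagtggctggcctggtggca
Sema5a: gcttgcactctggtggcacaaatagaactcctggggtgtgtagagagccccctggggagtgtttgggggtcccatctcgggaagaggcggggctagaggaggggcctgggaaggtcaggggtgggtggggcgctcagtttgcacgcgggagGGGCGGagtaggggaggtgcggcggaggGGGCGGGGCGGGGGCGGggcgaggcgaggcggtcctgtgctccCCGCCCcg
Sema3d: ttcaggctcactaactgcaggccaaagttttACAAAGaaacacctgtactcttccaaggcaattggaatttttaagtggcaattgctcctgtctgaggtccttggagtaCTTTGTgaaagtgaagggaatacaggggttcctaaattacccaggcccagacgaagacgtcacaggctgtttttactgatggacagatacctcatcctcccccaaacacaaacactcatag
The Sema5a window held 5 matches to the GC box, some of them overlapping, and 16 CpG dinucleotides at 71.7% GC. The Sema3g window held 1 match and 8 CpG at 61.3% GC. The Sema3d window held 0 GC boxes, 2 matches to ACAAAG and 2 CpG at 45.2% GC, where the median of all promoters was 51.7%. Other secreted ligands that were not lower varied. Sema3c held 2 GC box matches and 36 CpG at 78.7% GC. Sema3e held 1 match and 5 CpG at 45.2%, and Sema3a 0 matches and 2 CpG at 40.9%. The 3 printed windows therefore do not stand for lower genes and genes that were not lower. Of 32851 promoter windows of this length 29.8% held a GC box match, 15.4% an ACAAAG match and 5.35% a CACGTG match; of the 26 members 18 held the first, 3 the second and 0 the third. For genes with several starts in the table the window of the first one listed was used. Matches are descriptions of letters, not of binding.

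Among the secreted ligands, Sema3b measured 487 CPM in WT and 537 in PKO, against 153 in NF1 and 208 in PKO-NF1. Both Nf1-mutant libraries lay well below the other pair: Sema3b was lower by 3.18-fold in NF1 than in WT (95% counting interval 3.05 to 3.32), and by 2.58-fold in PKO-NF1 than in PKO (2.48 to 2.68). With the trends subtracted the folds were 2.28 and 1.88. Sema3g, a class 3 ligand known from vessels, measured 103 CPM in WT and 75.7 in PKO, against 32.5 in NF1 and 26.1 in PKO-NF1. It was 3.17-fold lower in NF1 (2.89 to 3.48) and 2.90-fold lower in PKO-NF1 (2.60 to 3.24), and 2.33-fold and 2.19-fold with the trends subtracted. Sema3f, which signals through neuropilin 2, measured 30.3 CPM in WT and 25.1 in PKO, against 13.2 in NF1 and 9.88 in PKO-NF1. It was 2.29-fold and 2.54-fold lower in the 2 pairs, and 1.53-fold and 1.67-fold with the trends subtracted, no longer called. Sema3b and Sema3f lie 72.3 kb apart on chromosome 9, at chr9:107597674-107609229 and chr9:107681500-107710475, both on the minus strand.

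The other 4 secreted ligands were not lower. Sema3c measured 62.4 CPM in WT and 73.1 in PKO, against 78.0 in NF1 and 81.3 in PKO-NF1, with log2 ratios of 0.32 and 0.15. Sema3d measured 34.2, 29.8, 41.9 and 43.4 CPM in the same order, with log2 ratios of 0.29 and 0.54. For Sema3e, the ligand of plexin D1, PKO was the library that differed: it measured 12.0 CPM in WT and 6.86 in PKO, against 12.3 in NF1 and 12.4 in PKO-NF1. Sema3a, the founding repellent of the class, was the 1 gene called higher, in NF1 vs WT, from only 23 counts in WT and 32 in PKO, against 54 in NF1 and 30 in PKO-NF1; its log2 ratio was 1.01 in that pair and 0.02 in PKO-NF1 vs PKO, and with the trends subtracted the first became 0.89 and was not called. These 4 genes share a stretch of chromosome 5, where Sema3e and Sema3d lie 423 and 536 kb from Sema3a and Sema3c lies 3972 kb from it. They also share a low GC content.

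GC content separated the members. The 4 genes of chromosome 5 and Nrp1, at 39.2% to 42.7% GC, were the only members below 45%, a limit chosen after the values had been seen. Their median log2 ratio was 0.29 in NF1 vs WT, with 0.15 in PKO-NF1 vs PKO, and 0 of 5 were called lower in either. The other 26, at 45.9% to 63.5%, had medians of -0.90 and -1.27, and 25 of the 26 were below 0 in each pair. With the trends subtracted the medians were 0.04 and -0.07 for the 5, and -0.41 and -0.71 for the 26. Across the 31 genes Pearson's r between GC content and log2 ratio was -0.65 and -0.69, and Spearman's rho -0.65 and -0.60. Over all genes r was -0.21 and -0.42, and rho was -0.37 and -0.46. The points share their libraries, so these are descriptions. Sema5a went against the order: at 45.9% GC it stood among the lowest ratios in NF1 vs WT.

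**Figure D3:**
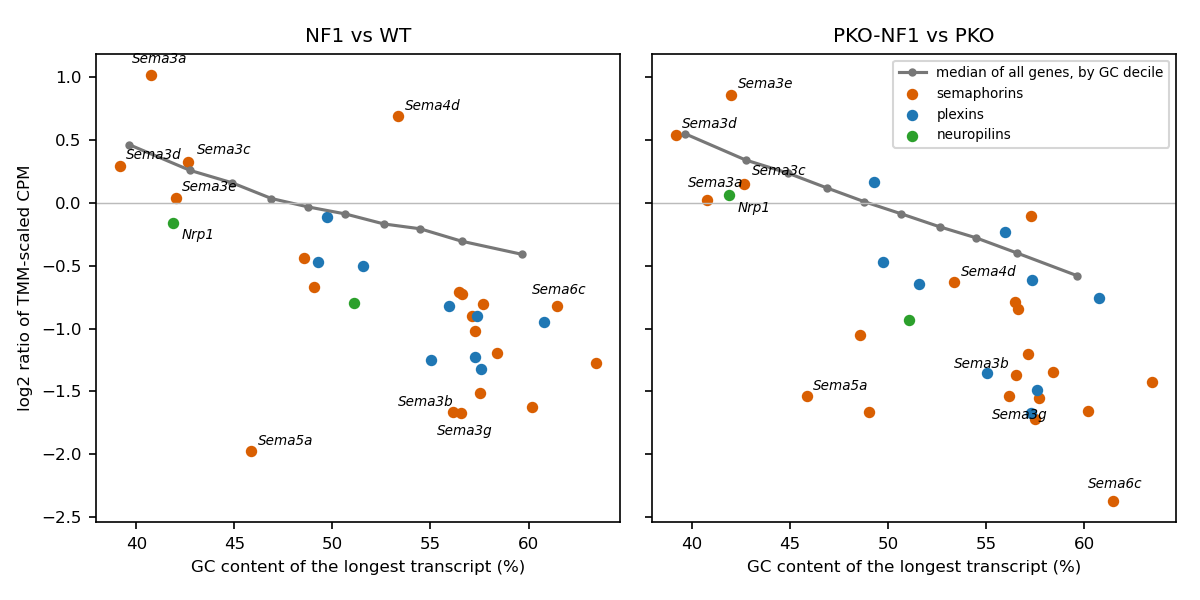
Log2 ratio of each member against the GC content of its longest transcript, for NF1 vs WT (left), PKO-NF1 vs PKO (right); the grey line joins the medians of all genes in 10 GC classes. The 5 members below 45% GC lie between -0.16 and 1.01, 25 of the 26 others lie below 0 in each pair, and Sema5a is the lowest in NF1 vs WT, at -1.97.

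Among the membrane ligands Sema5a stood out. Sema5a, which can attract or repel axons and binds plexin B3, measured 205 CPM in WT and 172 in PKO, against 52.3 in NF1 and 59.3 in PKO-NF1. It was 3.93-fold lower in NF1 (3.66 to 4.21) and 2.90-fold lower in PKO-NF1 (2.70 to 3.12), and 3.58-fold and 2.36-fold with the trends subtracted. Its relative Sema5b was far less abundant, at 69 and 75 counts in WT and PKO and 26 and 22 in the Nf1 mutants. It was 3.09-fold (1.94 to 5.05) and 3.14-fold (1.93 to 5.31) lower, with intervals wide enough to include values under 2-fold, and with the trends subtracted it was 1.86-fold and 1.72-fold lower and no longer called.

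Of the 6 class 4 ligands, Sema4g was called lower in both pairs, Sema4f in NF1 vs WT, Sema4c in PKO-NF1 vs PKO and the other 3 in neither. None of these calls held with the trends subtracted. Sema4g measured 60.1 CPM in WT and 35.6 in PKO, against 21.1 in NF1 and 10.8 in PKO-NF1, 2.86-fold and 3.30-fold lower, or 1.79-fold and 1.83-fold with the trends subtracted. Sema4c, the most abundant of the class, measured 154, 74.9, 82.5 and 32.6 CPM; it was called lower in PKO-NF1 vs PKO, at 2.30-fold (2.08 to 2.54) or 1.66-fold with the trends subtracted, and its log2 ratio of -0.90 in NF1 vs WT missed the 2-fold limit. Sema4f, at 82, 28, 47 and 24 counts, was called lower in NF1 vs WT, at 2.03-fold (1.40 to 2.97) or 1.39-fold with the trends subtracted, and its log2 ratio in PKO-NF1 vs PKO was -0.10. Sema4d, known from T cells and as a ligand of plexin B1, measured 13.6 CPM in WT and 10.7 in PKO, against 21.9 in NF1 and 6.89 in PKO-NF1. NF1, the library with the skeletal muscle transcripts, was the highest, so the log2 ratio was 0.69 in NF1 vs WT but -0.63 in PKO-NF1 vs PKO; neither was called, but with the trends subtracted the first became 1.16 and was called higher, in place of Sema3a. The part of muscle RNA in this was not tested. Sema4a and Sema4b were lower by less than 2-fold in both pairs, with log2 ratios between -0.84 and -0.71.

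All 5 class 6 and 7 ligands were below their control in both pairs. In PKO-NF1 vs PKO 5 were called lower, and in NF1 vs WT 1 was, Sema6b. Sema6c measured 137 CPM in WT and 115 in PKO, against 77.7 in NF1 and 22.2 in PKO-NF1. In PKO-NF1 it was 5.16-fold below PKO (4.62 to 5.79), 2.95-fold with the trends subtracted, while its log2 ratio in NF1 vs WT was -0.82. Sema6d measured 80.9, 77.1, 50.9 and 24.3 CPM in WT, PKO, NF1 and PKO-NF1, and was 3.17-fold lower in the double mutant than in PKO, 2.49-fold with the trends subtracted. For both genes PKO-NF1 was the lowest of the 4 libraries. Sema7a, a lipid-anchored ligand, measured 50.04, 45.8, 28.7 and 15.6 CPM and was 2.93-fold lower in that pair, 2.31-fold with the trends subtracted. Sema6a measured 31.6, 34.8, 23.3 and 16.8 CPM and was 2.07-fold lower in it, 1.76-fold with the trends subtracted. Sema6b, at 24.5, 25.7, 10.1 and 9.58 CPM, was 2.42-fold lower with Nf1 lost in the presence of P2ry14 and 2.68-fold in its absence, or 1.59-fold and 1.73-fold with the trends subtracted, no longer called. Whether the 2 Nf1 pairs differ from each other for Sema6c, Sema6d, Sema6a or Sema7a cannot be tested with 1 library per genotype.

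Among the receptors, Plxna1, Plxna3 and Plxnb1 were called lower in both pairs. Plxna1, a partner of neuropilins, measured 100 CPM in WT and 65.4 in PKO, against 42.8 in NF1 and 20.6 in PKO-NF1, which is 2.34-fold and 3.18-fold lower. Plxnb1, the receptor of Sema4d, measured 135, 78.3, 53.8 and 27.9 CPM, 2.50-fold and 2.81-fold lower. Plxna3, an X-linked plexin that serves Sema3f with neuropilin 2, measured 44.96, 20.6, 18.9 and 8.05 CPM, 2.38-fold and 2.56-fold lower. With the trends subtracted all 3 lay under 2-fold in both pairs, with log2 values from -0.81 to -0.56. Plxnd1 and Plxnb2, the 2 most abundant plexins per kb by the mean over libraries, were lower by less than 2-fold. In the NF1 library Plxnb3 lay above Plxnb2 per kb. Plxnd1 measured 247, 175, 128 and 103 CPM in WT, PKO, NF1 and PKO-NF1, and Plxnb2 145, 133, 78.1 and 86.9. Subtracting the trends left log2 ratios of -0.19 and 0.15 for Plxnd1 and of -0.25 and 0.17 for Plxnb2. Plxna2, Plxna4 and Plxnc1 had log2 ratios between -0.64 and 0.16 in the 2 pairs.

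The neuropilins parted. Nrp1, which also binds vascular endothelial growth factor, measured 90.1 CPM in WT and 125 in PKO, against 80.7 in NF1 and 131 in PKO-NF1. Its 2 libraries without P2ry14 were the high ones, and its log2 ratio was -0.16 in NF1 vs WT, with 0.06 in PKO-NF1 vs PKO. Nrp2 measured 95.4, 93.6, 54.9 and 49.1 CPM in the same order. Its 2 Nf1-mutant libraries were the low ones, with log2 ratios of -0.80 and -0.93 that missed the 2-fold limit, and of -0.40 in both with the trends subtracted.

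Read as ligand and receptor pairs, members of a pair were not lower together in every case. Sema3f, Nrp2 and Plxna3 were all below their controls in both pairs. Sema5a was among the lowest ligands, while its receptor Plxnb3 had log2 ratios of -0.82 and -0.23. Sema3e and its receptor Plxnd1 differed in sign: 0.04 and 0.86 for the ligand, -0.94 and -0.76 for the receptor. The counting interval of Sema3e in NF1 vs WT included no change, at a ratio of 0.85 to 1.25. This difference in sign was not kept with the trends subtracted. The log2 ratios then were -0.05 and 0.71 for Sema3e, and -0.19 and 0.15 for Plxnd1. Sema7a stood at -0.80 and -1.55, and Plxnc1 at -0.47 and 0.16.

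The second question was how loss of P2ry14 went with these genes, with Nf1 intact (PKO vs WT) and with Nf1 lost in the Schwann cell lineage (PKO-NF1 vs NF1), again 2 pairs without a shared library. Fewer members differed. In PKO vs WT 4 of 31 were called lower, where 5.22% of all genes were, and 0 higher, where 10.0% were. In PKO-NF1 vs NF1 7 were called lower, where 13.8% of all genes were, and 0 higher, where 7.90% were. The median log2 ratios were -0.25 and -0.42, against -0.08 and -0.01 over all genes. Sema4c, Plxna3 and Plxnb3 were called lower in both pairs, 3 of 4 and 3 of 7; over all genes the shared calls were 54.6% of the first list and 20.6% of the second. Over all genes Spearman's rho of the log2 ratio in these 2 pairs was 0.03 and -0.07 with GC content, and -0.44 and -0.39 with exon length. With trends over length and GC subtracted 2 and 3 members were called lower, where 6.24% and 10.9% of all genes were. The medians were -0.04 in each pair, against -0.13 and -0.003 over all genes. From these short lists 0 members were called in both pairs. Over all genes the shared calls were then 43.2% of the first list and 24.7% of the second. The shares of the 31 called lower were near those of all genes with the trends subtracted, and above them without.

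**Figure D4:**
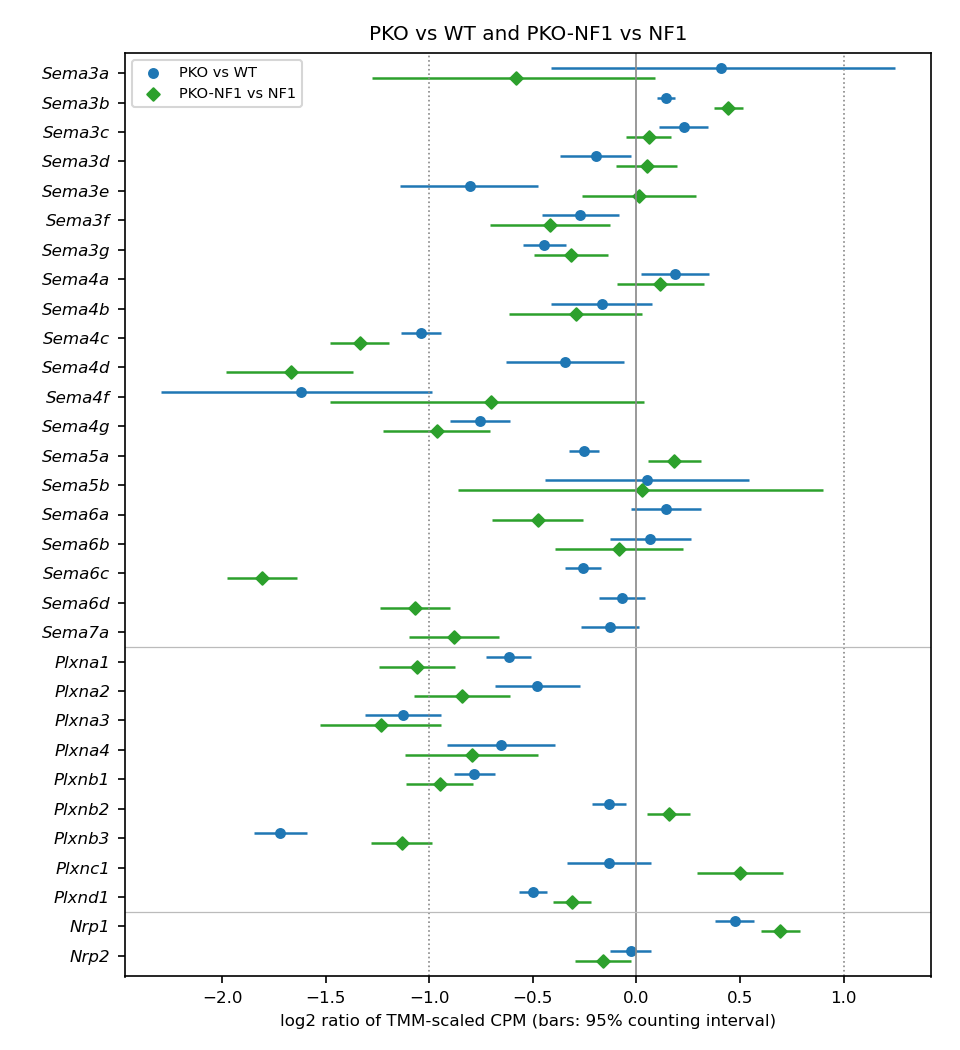
Ratio of each gene in PKO vs WT (blue circles) and PKO-NF1 vs NF1 (green diamonds) on a log2 scale, with bars for the 95% counting interval and dotted lines at a 2-fold difference. Plxnb3 lies furthest left in PKO vs WT, at -1.72, Sema6c and Sema4d lie furthest left in PKO-NF1 vs NF1, at -1.81 and -1.67, and Nrp1 lies right of 0 in both.

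Plxnb3, the receptor of Sema5a, measured 122 CPM in WT and 36.9 in PKO, against 68.9 in NF1 and 31.4 in PKO-NF1. The 2 libraries without P2ry14 were the low ones: Plxnb3 was 3.30-fold lower in PKO than in WT (3.02 to 3.60), and in PKO-NF1 it was 2.19-fold lower than in NF1 (1.98 to 2.43). With the trends subtracted the folds were 2.79 and 1.63. Sema4c was 2.05-fold lower in PKO than in WT (1.92 to 2.20), and in PKO-NF1 it was 2.53-fold lower than in NF1 (2.29 to 2.79), or 1.78-fold and 2.02-fold with the trends subtracted. It was thus lowest in the library that carried both mutations, at 32.6 CPM, and highest in WT, at 154. Plxna3 was also highest in WT and lowest in PKO-NF1, and was 2.19-fold and 2.35-fold lower in the 2 P2ry14 pairs, or 1.85-fold and 1.68-fold with the trends subtracted, no longer called. Both X-linked members are in this group, and the libraries differed in Xist as given above; the part of sex in their values was not tested.

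Sema4f was 3.07-fold lower in PKO than in WT (1.98 to 4.90), on 28 and 82 counts, and 2.58-fold with the trends subtracted; it was not called in PKO-NF1 vs NF1, at a log2 ratio of -0.70. Sema4d, Sema6c, Sema6d and Plxna1 were called lower in PKO-NF1 vs NF1 and not in PKO vs WT, a difference between pairs that was not tested. In PKO-NF1 vs NF1 Sema6c was 3.50-fold (3.12 to 3.93), Sema4d 3.18-fold (2.58 to 3.95), Sema6d 2.10-fold and Plxna1 2.08-fold lower. Trend subtraction left Sema6c 2.27-fold and Sema4d 2.45-fold lower, while Sema6d at 1.63-fold and Plxna1 at 1.30-fold were no longer called. In PKO vs WT, the pair that does not rest on the NF1 library, their log2 ratios were -0.26 for Sema6c, -0.35 for Sema4d, -0.07 for Sema6d and -0.62 for Plxna1. Nrp1 was 1.39 times as high in PKO as in WT (1.30 to 1.48) and 1.62 times as high in PKO-NF1 as in NF1 (1.52 to 1.73), under the 2-fold limit in both.

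An additive model over all 4 libraries (edgeR's quasi-likelihood test) set a term for Nf1 and one for P2ry14 against the departure from additivity, its 1 residual degree of freedom, and not against a spread between animals. At a Benjamini-Hochberg adjusted p under 0.05, 0 of the 31 genes passed for Nf1, where 0% of 14105 genes did. For P2ry14 0 passed, where 0.0496% did. The smallest adjusted p by edgeR was 0.168 for the Nf1 term, reached by several members at once, among them Sema5a with a log2 change of -1.76 and Sema3g with -1.60. For the P2ry14 term it was 0.142, with Plxnb3 at -1.43 and Sema4c at -1.19. At an unadjusted p under 0.05, 20 of the 31 passed for Nf1, where 20.9% of all genes did, and 10 passed for P2ry14, where 25.2% did; each of these members had a negative change. The DESeq2 Wald test of the same model called 9 members for Nf1, all lower, where 2.01% of all genes were called, and 2 for P2ry14, Plxnb3 and Sema4c, where 5.10% were. That test takes the spread from a trend over genes and does not account for its uncertainty with 1 residual degree of freedom.

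Of co-receptors and alternative receptors that work with semaphorins 14 were tested. In NF1 vs WT 3 of them were called lower, where 6.31% of all genes were, and 0 higher, where 10.4% were. In PKO-NF1 vs PKO 4 of them were called lower, where 9.70% of all genes were, and 1 higher, where 5.20% were. After trend subtraction 2 were lower and 1 higher, and 1 lower and 3 higher. The lower ones were led by Flt4, the receptor of vascular endothelial growth factor C and a partner of neuropilin 2. It measured 18.8 CPM in WT and 26.9 in PKO, against 5.99 in NF1 and 7.02 in PKO-NF1, so that it was 3.13-fold and 3.84-fold lower, and it was still called in both pairs with the trends subtracted. Mst1r, a kinase relative of Met that can associate with plexins, was 2.91-fold lower in NF1 vs WT, against 1.76-fold in the other Nf1 pair. Flt1, a further growth factor receptor, was 2.28-fold and 2.38-fold lower in the 2 Nf1 pairs, and called in neither with the trends subtracted. Chl1 and L1cam, adhesion molecules that bind neuropilins, were lower in PKO than in WT. L1cam measured 108 CPM in WT and 31.9 in PKO, and Chl1 111 and 43.3. Chl1 was higher in PKO-NF1 than in PKO, at 104 CPM. In the P2ry14 pairs the list had 2 and 0 called lower, where 5.22% and 13.8% of all genes were. It had 1 called higher in each, where 10.0% and 7.90% of all genes were. This was Tyrobp, an adaptor of the Sema6d co-receptor Trem2. Tyrobp was 3.43 and 2.43 times as high without P2ry14 and was not called with the trends subtracted.

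Of the 4 growth factors that bind neuropilins, 0 were called in NF1 vs WT, PKO-NF1 vs PKO and PKO vs WT. Subtracting the trends brought 3 calls, Vegfa higher and Vegfc lower in NF1 vs WT, and Pgf higher in PKO-NF1 vs PKO. Vegfa measured 97.95 CPM in WT and 83.4 in PKO, against 194 in NF1 and 43.4 in PKO-NF1. It was 4.47-fold lower in PKO-NF1 than in NF1, where the high library was again the one with muscle transcripts, and 1.17-fold lower in PKO than in WT. Pgf was 2.54 times as high in PKO-NF1 as in NF1 and 1.25 times as high in PKO as in WT.

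Of 31 intracellular effectors 2 were called lower in NF1 vs WT, 7 in PKO-NF1 vs PKO, 1 in PKO vs WT and 5 in PKO-NF1 vs NF1, and 1, 0, 0 and 2 were called higher. In the same order 6.31%, 9.70%, 5.22% and 13.8% of all genes were called lower, and 10.4%, 5.20%, 10.0% and 7.90% higher. After trend subtraction 1, 1, 1 and 2 effectors were lower and 2, 0, 0 and 2 higher. The shares of all genes called lower then were 5.10%, 5.39%, 6.24% and 10.9%. Dpysl5, one of the collapsin response mediators, was lowest in both Nf1-mutant libraries, at 98 counts in WT and 118 in PKO, against 9 in NF1 and 14 in PKO-NF1, or 12.7-fold and 7.77-fold lower. Mical3, a relative of the actin oxidase that acts below plexins, was 2.03-fold and 3.002-fold lower and measured 164, 111, 80.8 and 36.9 CPM. With the trends subtracted Dpysl5 was still called lower in both pairs and Mical3 in neither. Pak1, a kinase below Rac, was 2.50 times as high in NF1 as in WT and 1.76 times as high in PKO-NF1 as in PKO. Mical2 was 5.89-fold lower in PKO-NF1 than in NF1 and 1.84-fold lower in PKO than in WT. Mical3 was 2.19-fold lower in PKO-NF1 than in NF1, but with the trends subtracted its log2 ratio there turned to 0.16. Cfl1, the actin-severing cofilin, and Rras, a substrate of plexins, were 2.10 and 2.06 times as high in PKO-NF1 as in NF1, against 1.26 and 1.29 times in PKO vs WT, and with the trends subtracted neither was called. Cdk5r1, the activator of Cdk5, was the 1 effector called lower in PKO vs WT, at 2.32-fold (1.32 to 4.22), on 19 and 42 counts. It was also called lower in PKO-NF1 vs NF1, at 3.33-fold (1.69 to 7.14), on 11 and 44 counts.

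Markers of the cells that make these ligands and receptors moved as well. Endothelial markers summed to 808 CPM in WT and 975 in PKO, against 332 in NF1 and 585 in PKO-NF1, and 8 and 6 of 12 were called lower in NF1 vs WT and PKO-NF1 vs PKO, 0 higher. Markers of myelinating Schwann cells summed to 24483, 34784, 8134 and 18164 CPM, with 8 and 6 of 10 called lower in the same pairs. With the trends subtracted 7 and 3 of the 12 endothelial and 6 and 5 of the 10 myelinating markers were still called lower. Both sums were low in the Nf1-mutant libraries, as the members were. Pericyte and smooth muscle markers had 2 of 8 called lower in each Nf1 pair, and summed to 719, 1119, 638 and 973 CPM. Perineurial markers had 2 and 1 of 6, and their sum of 977, 1004, 650 and 666 CPM in WT, PKO, NF1 and PKO-NF1 was low in both Nf1 mutants. Markers of nerve fibroblasts had 0 of 10 called lower, and of macrophages 1 and 0 of 7, with Cx3cr1 called higher in both pairs. Adipocyte markers had 7 and 3 of 10 called lower and neuronal ones 2 and 0 of 7. The adipocyte list also had 1 called higher in NF1 vs WT. Of the Schwann cell lineage markers 0 and 1 of 5 were called lower and 0 and 1 higher. Of the 8 non-myelinating and repair markers 2 were called lower and 0 higher in NF1 vs WT, with a median log2 ratio of -0.55, while in PKO-NF1 vs PKO 1 was lower and 2, Chl1 and Sox2, were higher, with a median of 0.56. Of the mast cell and the T and NK cell markers 0 were called.

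In PKO vs WT 10.0% of all genes were called higher and 5.22% lower, and in PKO-NF1 vs NF1 7.90% and 13.8%. In the P2ry14 pairs endothelial markers had 0 of 12 called in PKO vs WT and 4 called higher in PKO-NF1 vs NF1, and myelinating Schwann cell markers 0 of 10 and 4 called higher, the same counts as with the trends subtracted. Markers of non-myelinating and repair Schwann cells had 5 of 8 called lower in PKO vs WT, Chl1 among them, and 1 called higher. With the trends subtracted 4 were lower and 1 higher. Their sum was 856 CPM in WT and 478 in PKO, and 0 of 8 were called in PKO-NF1 vs NF1. Of the Schwann cell lineage list 2 of 5 were called lower in each pair. Mast cell markers had 3 and 4 of 5 called higher and T and NK cell markers 2 and 2 of 3, but with the trends subtracted 0 of either list were called. Adipocyte markers had 5 and 6 of 10 called higher, and 3 and 6 with the trends subtracted, when 1 was also called lower in PKO-NF1 vs NF1. Neuronal markers had 3 and 5 of 7 called higher, and 4 and 5 with the trends subtracted. Either way 1 was called lower in PKO vs WT. Skeletal muscle markers had 15 of 19 called lower in PKO vs WT and 19 of 19 in PKO-NF1 vs NF1. The 1 erythroid gene tested, Alas2, was 11.6 times as high in PKO-NF1 as in PKO. At 0 counts in at least 1 library were Cd8a, Myh7, Myot, Ampd1, Syt1 and 4 globin genes, and no other marker was. What part these cell types had in the values of the semaphorins, plexins and neuropilins was not tested.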

How the data were processed

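Per the submitters' processing notes, reads were handled with FastQC 0.11.7, HISAT2 2.0.5 and featureCounts 1.5.2 on build mm10; for strand, annotation and multi-mapped reads nothing is given in the sources used here, so overlapping genes and antisense partners cannot be told apart. Per the labels' protocols RNA came from frozen nerves by Trizol and went into TruSeq libraries. The authors deposited whole-number counts per gene symbol, used here unchanged.

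CPM values use the TMM factors of edgeR 4.0.16 (1.20 in WT, 0.873 in PKO, 1.03 in NF1, 0.922 in PKO-NF1) in R 4.3.3, and genes at 1 CPM in any library were kept. Intervals of ratios are 95% Clopper-Pearson intervals, conditional on the summed counts, for counting error only, since PCR reads are not independent molecules; a count of 0 was set to 3 counts, 0.152 to 0.183 CPM. The additive model used genes at 1 CPM in at least 2 libraries, glmQLFit and glmQLFTest, with DESeq2 1.42.0 as an alternative. Exon length (union of exons), GC content (longest transcript) and coordinates came from GENCODE M21, with 98.4% of symbols matched; trends were natural splines with 4 degrees of freedom each, fitted per comparison over kept genes. Scripts were tested on simulated data.

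Values in all libraries are given for members called in any comparison and for the 3 most abundant of each class per kb, by the mean over libraries. From each pathway list up to 2 called genes per comparison and direction are named. Cx3cr1, Alas2, Sox2 and Vegfc were singled out after their values were seen. Members and lists were chosen with earlier results of these data known. Alternatives were other scalings, filters and fold thresholds, scaling without other-tissue lists, trend subtraction, and for the model other tests, single terms and leaving out each library. No column was left out.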

Additional observations from a re-analysis of the deposited data

Results flagged for a closer look

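Sema4d, the ligand of plexin B1, had opposite signs in the 2 Nf1 pairs: its log2 ratio was 0.69 in NF1 vs WT but -0.63 in PKO-NF1 vs PKO. Each library is the only one of its genotype, and the difference between the pairs was not tested. The highest of the 4 libraries, NF1, is the one with skeletal muscle transcripts.

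Plxna4os1, an antisense RNA named after the Plxna4 locus and outside the 31 genes, had 18 counts in WT and 39 in PKO, against 49 in NF1 and 31 in PKO-NF1, above the 3 counts that a count of 0 allows. Without a stated strand its reads cannot be told from those of its partner.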

How the results depend on the processing

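DESeq2 size factors, no expression filter, and scaling without skeletal muscle, adipocyte and erythroid genes left every count of called members and every median near its value. With length and GC trends subtracted 3 members were called lower in NF1 vs WT, 5 in PKO-NF1 vs PKO, 2 in PKO vs WT and 3 in PKO-NF1 vs NF1, with medians in this order of -0.27, -0.40, -0.038 and -0.044. With total counts only, 18 were called lower and 0 higher in NF1 vs WT, where 10.8% and 7.54% of all genes were. In PKO vs WT 9 were called lower, where 18.6% of all genes were, and in PKO-NF1 vs NF1 11, where 17.9% were. The medians were -1.04 in NF1 vs WT and -0.71 in PKO vs WT. With this scaling the median of all genes was -0.22 in NF1 vs WT, 0.08 in PKO-NF1 vs PKO, -0.54 in PKO vs WT and -0.18 in PKO-NF1 vs NF1. In the same order TMM scaling gave -0.001, -0.002, -0.08 and -0.01. At a 1.5-fold limit 21 were lower and 2 higher in NF1 vs WT, 22 lower and 1 higher in PKO-NF1 vs PKO, 9 lower and 0 higher in PKO vs WT, and 12 lower and 1 higher in PKO-NF1 vs NF1, where in the same order 16.7%, 20.1%, 15.3% and 24.1% of all genes were lower. A 5 CPM filter removed Sema3a, Sema4f and Sema5b and left 0 higher in NF1 vs WT, where 9.29% of all genes were. The 19 members called in at least 1 comparison gave 76 values, calls and uncalled values together. Calls among them were 11 lower and 1 higher for Nf1 loss with P2ry14 present, and 15 lower without P2ry14. For P2ry14 loss 4 were called lower with Nf1 intact and 7 with Nf1 lost. Trend subtraction took 25 of these calls below the limit and brought 1 further value past it, and 0 changed sign while called. The DESeq2 Wald test called 9 members for Nf1 and 2 for P2ry14. Leaving out each library in turn gave 0 to 0 called members for both terms, with 1 term only. No paired analysis was possible because each genotype has 1 library. Depth limits Sema3a, Sema4f and Sema5b, which had under 100 counts in each library.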
